A study of Mus musculus with 6 samples.

Results

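The 10 genes described here encode proteins that the liver secretes into the blood plasma. They are the fibrinogen chain genes Fga, Fgb and Fgg, the serum carriers Afp (alpha-fetoprotein), Alb (albumin), Ttr (transthyretin), Trf (transferrin) and Rbp4 (retinol binding protein 4), and the glycoprotein genes Ahsg (fetuin-A) and Serpina1a (an alpha-1-antitrypsin). They were chosen by name, with earlier results of these data known, and all 10 were found among the 24054 genes of the RNA-seq tables. The 6 samples came from 1 double knock-in (DKI) mouse embryonic stem cell (ESC) line, in which 1 Foxa2 allele is fused to Venus (heterozygous) and both Sox17 alleles are fused to Cherry (homozygous), and 2 independent replicates were made of each population. The d0 cells were pluripotent ESCs, sorted as negative for both reporters. The d3F cells were mesendoderm cells, sorted on day 3 as Venus-positive and Cherry-negative, and the d5FS cells were endoderm cells, sorted on day 5 as positive for both reporters. Both later populations were grown in endoderm differentiation medium with 1 ng/ml Wnt3a and 10 ng/ml Activin A, signalling proteins that direct ESCs towards endoderm. As 1 cell line was used and Foxa2 and Sox17 were the sorting markers, the populations are selected reporter cells of that line and not tissue from an embryo.

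Plasma proteins are made mainly by hepatocytes, but before the liver forms many of them are also made by the visceral endoderm of the yolk sac, which supplies the early embryo. Their genes are known targets of liver-enriched transcription factors of the Hnf4, Foxa and C/EBP families. Fibrinogen is assembled from all 3 of its chains, Ttr carries Rbp4 loaded with retinol, and Afp is the fetal relative of albumin, encoded beside it on the same chromosome.

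Promoter sequences are shown for 2 pairs of neighbouring genes, Afp with Alb and Fgb with Fgg. The window of the third fibrinogen gene, Fga, is described but not printed because it runs into the Fga gene of the annotation. Each window holds the 250 bases before the start of a RefSeq transcript (build GRCm38.p6), written 5′ to 3′ on the strand of the gene, and 8 of the 10 genes had an entry. Capitals mark matches on either strand to TNTTTAC (FOXA), CAAAGNNCA (HNF4) or TTGCNNAA (CEBP), and no 2 matches overlapped.
Afp, chr5:90490464-90490713, plus strand: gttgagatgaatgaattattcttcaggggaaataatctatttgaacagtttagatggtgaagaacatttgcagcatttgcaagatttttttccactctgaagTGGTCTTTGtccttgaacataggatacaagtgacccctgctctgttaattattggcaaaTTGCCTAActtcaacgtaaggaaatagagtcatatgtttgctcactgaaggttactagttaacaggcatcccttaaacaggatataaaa
Alb, chr5:90460620-90460869, plus strand: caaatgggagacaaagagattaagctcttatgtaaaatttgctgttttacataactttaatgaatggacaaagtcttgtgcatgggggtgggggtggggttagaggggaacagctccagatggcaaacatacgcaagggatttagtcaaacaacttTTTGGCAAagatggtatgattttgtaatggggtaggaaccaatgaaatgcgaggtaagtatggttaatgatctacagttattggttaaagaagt
Fgb, chr3:83049864-83050113, minus strand: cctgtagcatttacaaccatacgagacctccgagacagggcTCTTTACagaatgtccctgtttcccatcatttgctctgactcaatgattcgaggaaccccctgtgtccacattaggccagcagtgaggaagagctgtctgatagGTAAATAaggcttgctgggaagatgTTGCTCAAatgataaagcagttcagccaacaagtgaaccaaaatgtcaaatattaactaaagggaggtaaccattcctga
Fgg, chr3:83007474-83007723, plus strand: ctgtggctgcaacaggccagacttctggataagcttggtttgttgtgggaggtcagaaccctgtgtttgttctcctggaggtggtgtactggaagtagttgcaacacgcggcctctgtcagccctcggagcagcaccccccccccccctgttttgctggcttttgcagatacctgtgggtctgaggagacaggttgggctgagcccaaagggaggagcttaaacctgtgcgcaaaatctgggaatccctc
The Afp and Alb windows each held 1 CEBP match, and the Afp window also held 1 HNF4 match. The Fgb window held 2 FOXA matches and 1 CEBP match, the Fga window held 1 HNF4 and 1 CEBP match, and the Fgg window held no match to these 3 motifs. Over the 8 genes with an entry, CEBP letters were found in 6, FOXA letters in 2 and HNF4 letters in 2. These genes had 9 windows, as Rbp4 had more than 1, with its FOXA and CEBP matches in different windows. The Ahsg window and the Rbp4 window with the CEBP match lay inside the annotated gene, and the Fga window ran into its gene. The counts above are per gene, whereas the shares of all windows are per window. Among all 32851 promoter windows of this length, 9.56% held the CEBP letters, 10.9% the FOXA letters and 5.49% the HNF4 letters. The GATA letters AGATAA on either strand were in the window of none of the 8 genes and in 9.99% of all windows. The letters TATAAA on the strand of the gene were found for Afp and Rbp4 (in its window inside the gene), and in 7.59% of all windows.

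Each sample held 16457729 to 22768686 expected counts, which sets the floor of detection for these mostly low genes. A count of 0 over both samples of a population allows up to 0.0676 counts per 1000000 (CPM) in d0, 0.0691 in d3F and 0.0882 in d5FS, at 3 counts, for counting error only. Foxa2 and Sox17, the sorting markers, were at 0.0452 to 0.270 CPM and 0.449 to 0.769 CPM in d0 and at 39.3 to 59.0 CPM and 58.1 to 101.9 CPM in d5FS. In each population replicate 2 had counts for more genes than replicate 1 (18354 to 19859 against 16773 to 16977). Per the supplementary sample list of the study, 1 library of each population was made from mRNA and the other from total RNA, without saying which replicate, so this preparation cannot be told apart from the spread between replicates. A group of 6 small structural RNAs took 41.7 to 66.5% of the TPM of a sample (transcripts per 1000000), so samples were compared in CPM, and genes within a sample in TPM, which are per length.

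The 10 genes together went from 6.52 and 16.8 summed CPM in the d0 replicates to 3.82 and 5.80 in d3F and 52.8 and 101.7 in d5FS. Both d5FS samples lay above all 4 earlier ones, and the genes behind the sum differed between populations. Trf held 67.4 and 85.8% of the summed counts in d0. Rbp4 held 62.1 and 57.5% in d3F and 42.1 and 43.9% in d5FS, followed in d5FS by Ttr, with 21.7 and 19.7%. The d0 level was thus mostly transferrin, the iron carrier of plasma, and the d5FS level mostly the retinol carrier pair.

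**Figure D1:**
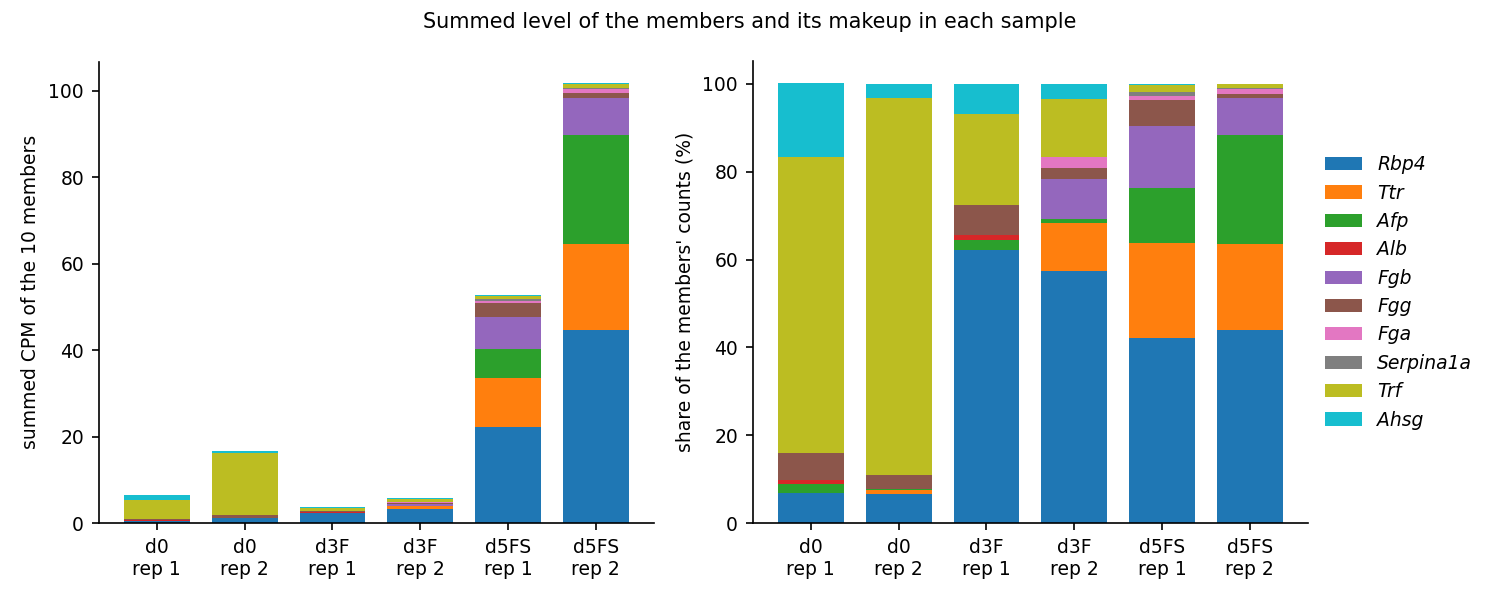
Summed level of the 10 genes in CPM (left) and the share of each gene in their summed counts in percent (right) for each of the 6 samples. Trf makes up most of both d0 bars, and Rbp4, Ttr, Afp and Fgb make up most of both d5FS bars, which reach 52.8 and 101.7 CPM.

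Calls came from edgeR's quasi-likelihood test, at an adjusted p under 0.05 (Benjamini-Hochberg) together with an absolute log2 fold change above 1. The test covered 14539 genes, 8 of these 10 among them, because Alb and Serpina1a did not pass the filter on low counts. Fga, Fgb, Fgg, Afp and Ttr passed that filter only with their d5FS samples and Ahsg only with its d0 samples, so the counts of calls below describe these genes and are not independent of their pattern. From d0 to d3F, 1 of the 8 was called (Trf, lower) where 4.7% of all genes tested were (2.8% higher and 1.9% lower). From d3F to d5FS 2 were called, both higher (Afp and Rbp4), where 1.54% of all genes were (1.08% higher and 0.461% lower). From d0 to d5FS 7 were called, 5 higher and 2 lower, where 22.8% of all genes were (12.4% higher and 10.4% lower). The 5 that rose were Rbp4, Ttr, Afp, Fgb and Fga, the 2 that fell were Trf and Ahsg, and Fgg was not called. Without a test, both d5FS samples lay above both d0 samples for 6 of the 8 and below them for 2, against 35% and 27.3% of all genes tested. From d3F to d5FS 7 lay above and 1 below (27.1% and 24.5% of all genes), and from d0 to d3F 1 lay above and 3 below (30% and 19.5%). The comparisons share samples, so they are not independent of each other.

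**Figure D2:**
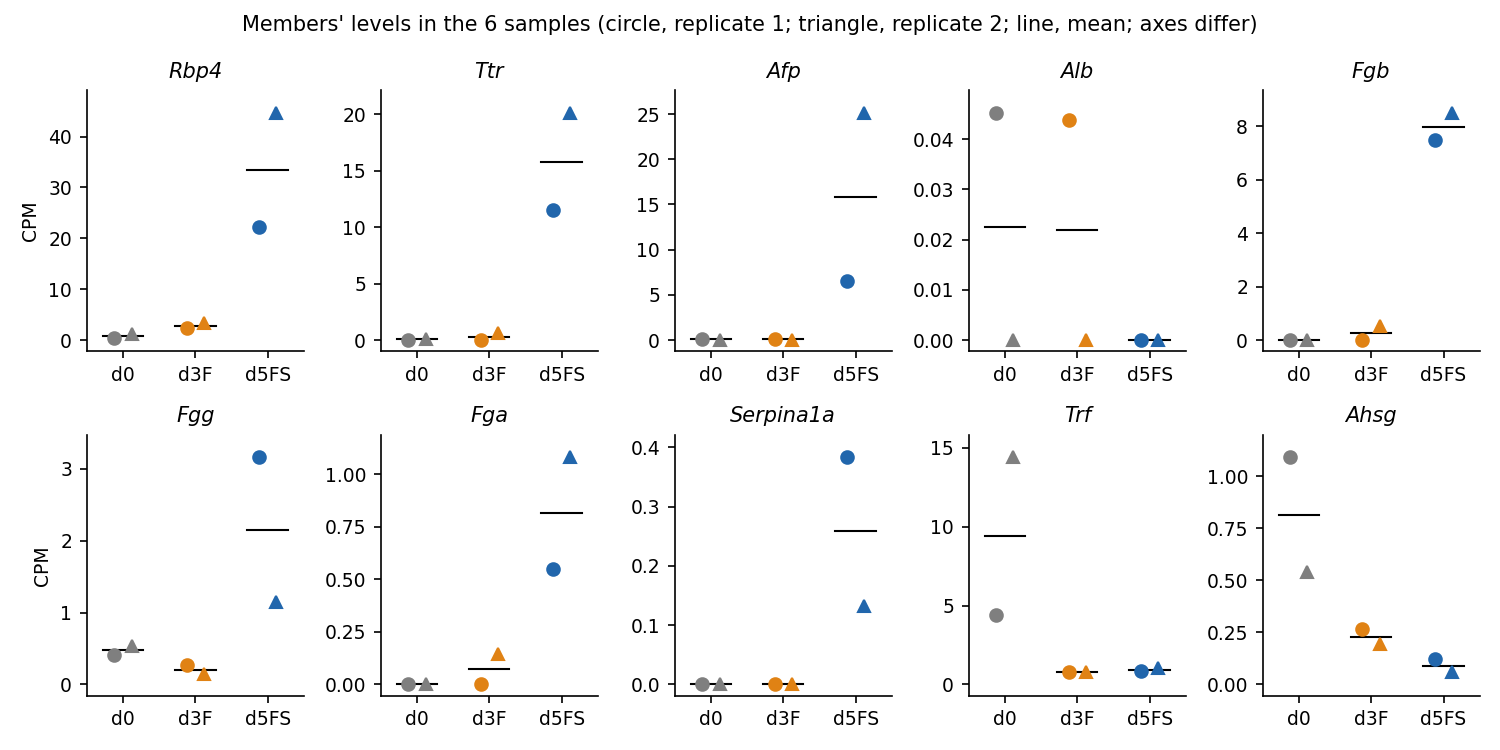
CPM of each of the 10 genes in d0, d3F and d5FS, with replicate 1 as a circle, replicate 2 as a triangle and the mean as a line; the vertical axes differ. In 7 genes both d5FS samples lie above both d0 samples, in Trf and Ahsg both lie below them, and Alb is at 0 in both d5FS samples.

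Rbp4, which carries retinol from the liver to other tissues, was the highest of the 10 genes in d5FS per length. Rbp4 counted 0.452 and 1.12 CPM in the d0 replicates, 2.37 and 3.34 in d3F and 22.2 and 44.6 in d5FS. The 3 populations did not overlap and followed each other in order. The fitted log2 fold change was 1.73 (SE 0.61, adjusted p = 0.152) from d0 to d3F, which was not called, 3.53 (SE 0.60, adjusted p = 0.034) from d3F to d5FS and 5.26 (SE 0.66, adjusted p = 0.00294) from d0 to d5FS. On pooled counts the d5FS level was 42.8-fold the d0 level (95% counting interval 30.6 to 61.8). At 12.7 and 17.7 TPM in the d5FS replicates, Rbp4 stood above 82.9 and 90.8% of all genes tested. The call from d3F to d5FS was lost without either d3F or either d5FS replicate (adjusted p 0.0843 to 0.256), whereas that from d0 to d5FS was kept without each of the 6 samples. Of its tested neighbours on chromosome 19 (Rbp4 at 38116629-38125281, minus strand), Ffar4, a fatty acid receptor, rose from 0.0905 and 0.225 CPM in d0 to 4.13 and 3.47 CPM in d5FS (4.40, SE 0.88, adjusted p = 0.0118). Lgi1 rose as well (2.73, adjusted p = 0.0433), and Fra10ac1 and Cep55 were not called. Ffar4 and Lgi1 passed the filter on low counts only with their d5FS samples, so their calls are not independent of their level there. Of all genes tested, 12.4% rose from d0 to d5FS.

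Ttr, the carrier of thyroxine that also binds Rbp4, followed Rbp4 at a lower level. It had 0 and 3 counts in d0, then 0 and 13 in d3F, and 189 and 352 in d5FS. In CPM these were 0 and 0.135, 0 and 0.629, and 11.5 and 20.1, so d5FS lay above all other samples while d0 and d3F overlapped. The log2 fold change was 7.63 (SE 1.39, adjusted p = 0.00858) from d0 to d5FS. From d3F to d5FS it was 5.61 (SE 1.18, adjusted p = 0.0629), which did not pass the threshold, but did without either d0 replicate or d3F replicate 2 (adjusted p 0.0228 to 0.0341). The pooled level in d5FS was 53.2-fold that in d3F (counting interval 30.8 to 100.5). Per length the ratio of Ttr to Rbp4 within a sample was 0.378 and 0.328 in the d5FS replicates, so this ratio differed little between replicates in which the CPM of Rbp4 differed 2.01-fold.

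Afp, the main plasma protein of the early embryo, was close to the detection floor until day 5. The d0 replicates had 3 and 1 counts, the d3F replicates 2 and 1, and the d5FS replicates 108 and 441. In d5FS this was 6.56 and 25.1 CPM, above all 4 earlier samples, which held at most 0.136 CPM. Afp was called both from d3F to d5FS, with a log2 fold change of 7.74 (SE 0.97, adjusted p = 0.016), and from d0 to d5FS, with 7.30 (SE 0.94, adjusted p = 0.00302). The pooled ratio of d5FS to d0 was 179 (counting interval 69.5 to 659.3). Between the d5FS replicates Afp differed 3.83-fold (counting interval 3.10 to 4.77), the widest of the called genes that rose. The call from d3F to d5FS was lost without d3F replicate 1, without d3F replicate 2 and without d5FS replicate 2, while that from d0 to d5FS was kept without each sample.

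Alb, the most abundant plasma protein of adult blood, was not detected in d5FS. It had 1 and 0 counts in d0, then 1 and 0 in d3F and 0 in both d5FS samples, which allows at most 0.0882 CPM over that population. All 6 samples were thus at or under the floor, and no fold change can be given. Alb lies on chromosome 5 at 90460897-90476602 (mm10, plus strand), and Afp begins 14.1 kb downstream of its end at 90490737-90508907 on the same strand. Of the further genes of this locus, Afm (afamin) and Gc (vitamin D binding protein), both albumin relatives, held at most 0.0608 CPM in a d5FS sample, were not tested and are named after their values were seen. Rassf6, Ankrd17 and Cox18, which lie nearby and encode no plasma protein, had log2 fold changes of 1.83, -0.03 and 0.14 from d0 to d5FS and were not called. In the list of this locus 1 of 4 tested genes was called from d0 to d5FS (Afp, 25%), where 22.8% of all genes tested were. This share is close to that of all genes, and Afp passed the filter on low counts only with its d5FS samples. The antisense overlap of Afp with Gm43449 is not resolved by libraries that do not mark strand.

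The 3 fibrinogen chain genes lie together on chromosome 3, with Fgg at 83007724-83015049 and Fga at 83026076-83033627 on the plus strand and Fgb at 83040141-83049863 on the minus strand. Gaps of 11026 and 6513 bases separate them. Fibrinogen is the precursor of the fibrin clot, and all 3 chains are needed for its assembly. Fgb had no count in either d0 sample, 0 and 11 counts in d3F and 123 and 149 in d5FS. This was 7.47 and 8.49 CPM in d5FS, above all other samples, and the d5FS replicates differed 1.14-fold (counting interval 0.888 to 1.45). The pooled d5FS level was at least 118.3-fold higher than d0, set against the floor of 3 counts over d0, and 31.6-fold the d3F level (counting interval 17.4 to 64.0). Fgb was called from d0 to d5FS (adjusted p = 0.00942) and not from d3F to d5FS (log2 fold change 4.85, SE 1.13, adjusted p = 0.0881). Without either d0 replicate or d3F replicate 2 the latter passed as well (adjusted p 0.0341 to 0.0365).

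Fga, the alpha chain, followed at a much lower level. It had 0 counts in d0, then 0 and 3 in d3F and 9 and 19 in d5FS, or 0.547 and 1.08 CPM in d5FS. Both d5FS samples lay above the other 4, and the pooled level was at least 12.2-fold higher than in d0. The call from d0 to d5FS (adjusted p = 0.0283) was lost without either d0 replicate and without d5FS replicate 1 (adjusted p 0.0779 to 0.0881), and without d5FS replicate 2 Fga was not tested. It was also lost with glmTreat (adjusted p = 0.0588) and with the DESeq2 Wald test against a log2 fold change of 1, which gave no adjusted p. Fgg, the gamma chain, was the fibrinogen gene with counts already in ESCs, at 9 and 12 in d0. It had 6 and 3 counts in d3F and 52 and 20 in d5FS, or 0.407 and 0.539, 0.264 and 0.145, and 3.16 and 1.14 CPM. The populations did not overlap, yet no comparison of Fgg was called: the log2 fold change was 2.01 (SE 0.70, adjusted p = 0.0703) from d0 to d5FS and 3.32 (SE 0.77, adjusted p = 0.079) from d3F to d5FS. Its d5FS replicates differed 2.77-fold, with replicate 1 higher, whereas Rbp4, Ttr and Afp were higher in replicate 2.

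Within d5FS samples the 3 chains were far from equal per length. Fgb was at 2.33 and 1.84 TPM, Fgg at 1.02 and 0.26 and Fga at 0.07 and 0.12. The ratio of Fgb to Fgg was 2.28 and 7.08 in the 2 replicates, and that of Fgb to Fga 33.3 and 15.3. Of the other genes tested in this stretch of chromosome 3, Plrg1 (a splicing factor) and Rbm46 were not called from d0 to d5FS, with log2 fold changes of -0.67 and -0.16. Sfrp2, a secreted Wnt antagonist, fell by 3.06 on the log2 scale (adjusted p = 0.0387), the direction opposite to Fga and Fgb. Fgg also overlaps the lincRNA gene Gm30097 on the other strand, and reads of the pair cannot be told apart in libraries that do not mark strand.

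Serpina1a, an inhibitor of neutrophil elastase, was found only in d5FS among these samples, and near the floor. Its expected counts were 0 in all d0 and d3F samples and 6.31 and 2.34 in d5FS, or 0.383 and 0.133 CPM. Pooled, this was at least 3.76-fold higher than d0, and the gene was not tested. The gene lies on chromosome 12 at 103853589-103863562 (minus strand). Mouse has several near-identical Serpina1 genes, and 40.8% of the 100-base windows of the Serpina1a transcripts are shared with another of them, so the split of reads between paralogs is uncertain. Serpina1a to Serpina1e together had 0 and 3 counts in d0, then 1 and 0 in d3F and 13 and 7 in d5FS. Of the 11 genes listed from this serpin cluster on chromosome 12, none was tested, with summed levels of 1.25 to 1.28 CPM in d5FS.

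Trf took the opposite course. Its counts were 97 and 321 for the d0 replicates, 18 and 16 for d3F and 14 and 18 for d5FS. In CPM this was 4.39 and 14.4, 0.791 and 0.774, and 0.851 and 1.03, so both d0 samples lay above all others. The decrease from d0 to d3F was called (log2 fold change -3.74, SE 0.71, adjusted p = 0.027), as was that from d0 to d5FS (-3.49, SE 0.71, adjusted p = 0.0122). From d3F to d5FS the log2 fold change was 0.25 (SE 0.71, adjusted p = 0.891). The d0 replicates themselves differed 3.29-fold (counting interval 2.61 to 4.17), and the d0 to d3F call was lost without d0 replicate 2, d3F replicate 1, d3F replicate 2, d5FS replicate 1 or d5FS replicate 2. The d0 to d5FS call was lost without either d5FS replicate.

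Tfrc, the receptor through which cells take up iron-loaded transferrin, also fell. It was at 507.1 and 376.9 CPM in d0, then 351.5 and 155.2 in d3F and 88.2 and 27.6 in d5FS. The change across both steps was -3.06 on the log2 scale (SE 0.56, adjusted p = 0.00891). Of the genes beside Trf on chromosome 9 (103204001-103230444, minus strand), Srprb, Topbp1 and Cdv3 were not called in any comparison, and Rab6b and Slco2a1 rose from d0 to d5FS by 1.91 and 2.95 on the log2 scale. None of these 5 neighbours was called lower. Of all genes tested, 12.4% rose and 10.4% fell from d0 to d5FS, and 1.9% fell from d0 to d3F. Trf itself overlaps the gene model Gm20425 on its own strand, so counting could divide its reads.

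Ahsg, an inhibitor of calcification that is abundant in fetal plasma, also fell, from a low level. It had 24 and 12 counts in d0, then 6 and 4 in d3F and 2 and 1 in d5FS. The corresponding 1.09 and 0.539, 0.264 and 0.193, and 0.122 and 0.057 CPM did not overlap between populations. Between d0 and d5FS the fitted log2 change of Ahsg was -3.20 (SE 0.84, adjusted p = 0.0287), and the pooled ratio was 0.109 (counting interval 0.0214 to 0.344). This call was lost in each of the 6 fits that left out 1 sample, so it rests on the full set of samples. Fetub, the paralog of Ahsg 18.9 kb away on chromosome 16, also fell: it was at 1.13 and 1.39 CPM in d0, then 0.439 and 0.339 in d3F and 0.243 and 0.114 in d5FS (log2 fold change -2.93, SE 0.72, adjusted p = 0.0238 from d0 to d5FS). Kng2, a kininogen gene of the same locus, rose from 0.136 and 0.225 CPM in d0 to 1.15 and 2.04 CPM in d5FS (adjusted p = 0.0316), and Dnajb11, Eif4a2 and Tbccd1 were not called. Kng2 passed the filter on low counts only with its d5FS samples, and Fetub, like Ahsg, only with its d0 samples. Of all genes tested, 12.4% rose and 10.4% fell from d0 to d5FS. Ahsg (22891277-22899449, plus strand) overlaps the antisense gene Gm30505, whose reads cannot be separated from its own here.

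**Figure D3:**
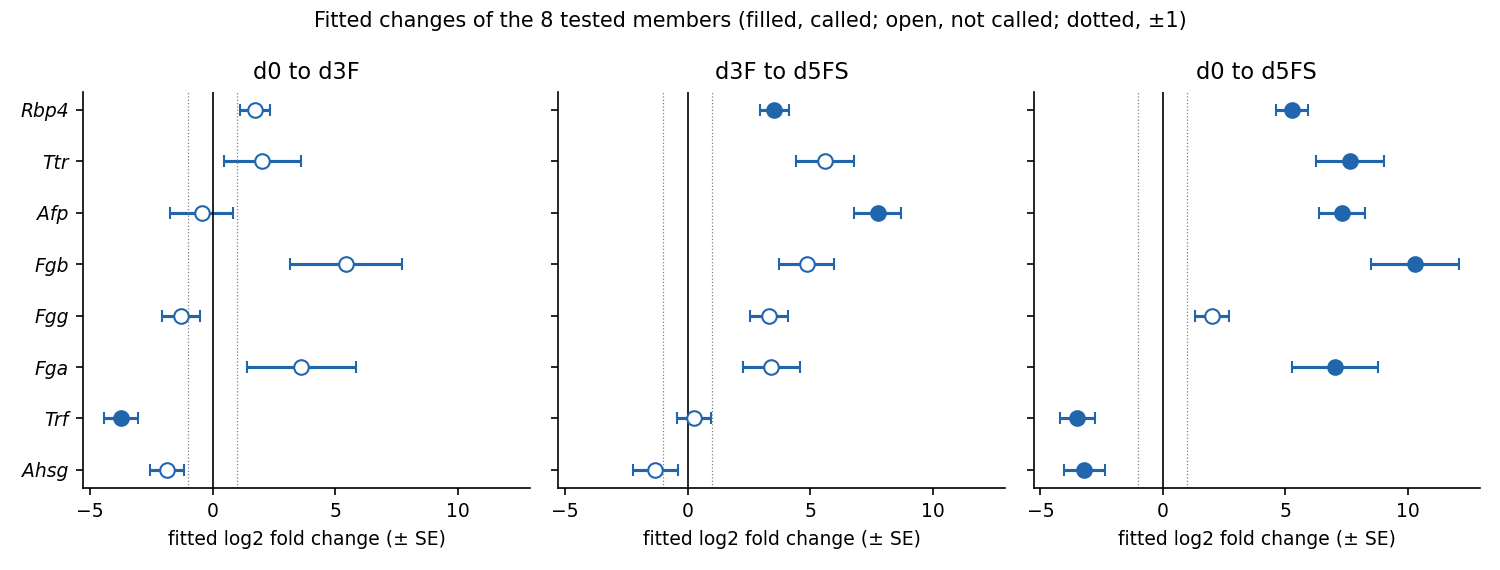
Fitted log2 fold change with its standard error for the 8 tested genes from d0 to d3F, d3F to d5FS and d0 to d5FS; filled points were called and dotted lines mark ±1. Afp and Rbp4 are the filled points from d3F to d5FS, and Trf and Ahsg lie left of 0 from d0 to d5FS.

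In d3F cells, Fga, Fgb and Ttr had counts in replicate 2 alone. With 3, 11 and 13 counts there and 0 in replicate 1 for each, the d0 to d3F changes of these genes rest on 1 sample. Hnf4a, a nuclear receptor known to act on many plasma protein genes, was also uneven, at 0.264 CPM in d3F replicate 1 and 2.08 in replicate 2. Gata4 and Sox17 were likewise higher in replicate 2, at 75.8 against 17.9 CPM and 13.9 against 5.14 CPM, and Foxa2 was lower, at 45.8 against 76.9 CPM. Whether these d3F differences have a part in the member counts was not tested.

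In d5FS, the order of the genes per length began with Rbp4 and Ttr in both replicates, at 12.7 and 4.82 TPM in replicate 1 and 17.7 and 5.82 TPM in replicate 2. Afp (1.49 and 3.96 TPM) and Fgb (2.33 and 1.84 TPM) changed places between replicates and so did not differ beyond their spread. Fgg, at 0.640 ± 0.537 TPM (SD, n = 2), came next. Trf, Fga and Serpina1a followed at means of 0.155, 0.0950 and 0.0700 TPM, with overlapping values for Fga and Serpina1a, and Ahsg and Alb were lowest. Against all genes tested, Fgb stood above 45.1 and 50.1% of them in the d5FS replicates and Ttr above 62.1 and 74.9%. Afp stood above 36.5 and 66.7% and Rbp4 above 82.9 and 90.8%. Fgb, Ttr and Afp were thus of middle abundance and Rbp4 higher, and the remaining genes of the set were lower than these.

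A further list of 63 plasma protein genes of the liver was examined, of which 62 were in the tables and 17 passed the filter on low counts. From d0 to d5FS 9 of the 17 rose and 1 fell (Fetub), where 22.8% of all genes tested were called. As 10 of the 17 passed the filter only with their d5FS samples, 7 of the 9 that rose among them, and Fetub only with its d0 samples, this count and the median log2 fold change of 3.31 (0.02 over all genes tested) describe genes kept partly for their level there. Among those that rose, Proc, the anticoagulant protein C, went from 0.679 and 0.629 CPM to 10.3 and 16.1 CPM (log2 fold change 4.22, SE 0.55, adjusted p = 0.00309). Masp1, a protease of the lectin pathway of complement, rose by 5.47 (SE 0.80, adjusted p = 0.00433), with a call already from d0 to d3F (adjusted p = 0.0209). Serpinf2, the plasmin inhibitor, rose by 4.72 (SE 0.93, adjusted p = 0.0111), and Hpx, which binds heme, by 5.02 (SE 1.09, adjusted p = 0.0154). F10, coagulation factor X, had no count in d0 and reached 1.76 and 4.16 CPM in d5FS (adjusted p = 0.00801). The other 45 genes of the list in the tables did not pass the filter, and F11, Itih2, C9 and Orm2 had no count in any sample.

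**Figure D4:**
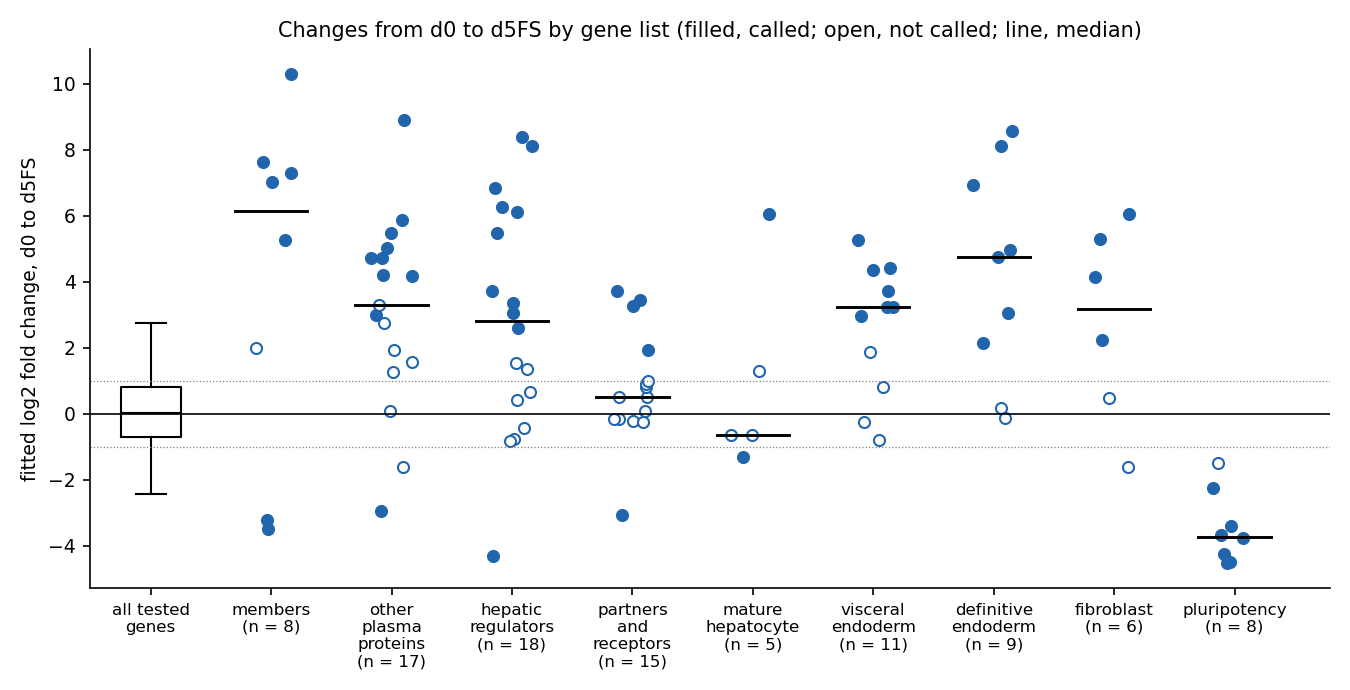
Fitted log2 fold change from d0 to d5FS for the tested genes of each list, with filled points called, open points not called and a line at the median; the box spans the quartiles of all genes tested and its whiskers the 5th and 95th percentiles. The 10-gene set (8 tested) has 6 genes above 0 and 2 below, with a median of 6.15, or 4.43 with the genes at 0 in d0 set at their bound, and the pluripotency list lies wholly below 0.

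Regulators of liver genes were listed separately, 20 in all and 18 tested. From d0 to d5FS 10 of them rose and 1 fell (Nr5a2), against 12.4% of all genes tested that rose and 10.4% that fell, and 2 of the 18 passed the filter only with their d5FS samples. Hnf4a was at 0.0905 and 0.180 CPM in d0 and 41.7 and 60.4 in d5FS (log2 fold change 8.39, SE 1.03, adjusted p = 0.00271), and its step from d3F to d5FS was called (5.40, adjusted p = 0.0263), as it was for Afp and Rbp4. Foxa3 rose from 4.71 and 4.36 CPM in d0 to 40.6 and 60.2 in d5FS (3.37, SE 0.37, adjusted p = 0.00195). Foxa2 had its change already from d0 to d3F (8.42, adjusted p = 0.0024), and from d3F to d5FS its log2 fold change was -0.31 (adjusted p = 0.765). Gata4 rose by 6.83 and Rxra by 2.60 from d0 to d5FS. Cebpa, a member of the C/EBP family, was not called, with a log2 fold change of -0.44 and levels of 1.76 to 2.22 CPM in d5FS. Cebpb, of the same family, was not called either (0.41), at 17.3 and 5.87 CPM in the d5FS replicates. Both were chosen after their values were seen.

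Receptors and partners of the secreted proteins numbered 15 tested genes, of which 4 rose and 1 fell from d0 to d5FS. This was 33.3% called against 22.8% of all genes tested, with a median log2 fold change of 0.52. Of the 15, 2 (Fcgrt and Cubn) passed the filter on low counts only with their d5FS samples. As Cubn is among the 4 that rose, this share is not independent of their level there. Stra6, the cell surface receptor for Rbp4, rose from 0.271 and 0.404 to 2.55 and 4.61 CPM (3.27, SE 0.67, adjusted p = 0.0126). Cubn, an endocytic receptor for plasma proteins including albumin and transferrin, rose from 1.13 and 0.225 to 9.36 and 9.46 CPM, with a call from d3F to d5FS as well (adjusted p = 0.0252). Itgb3, a subunit of the fibrinogen receptor, rose by 3.44 (adjusted p = 0.0213), and Thra, a thyroid hormone receptor, by 1.93 (adjusted p = 0.0169). The gene that fell was Tfrc.

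Markers of cell types that make these proteins, or that a culture could hold, were measured beside the results. Their counts are to be read against the 12.4% of all genes tested that rose and the 10.4% that fell from d0 to d5FS. Tdo2 (hepatocyte), Cubn and Ihh (visceral endoderm) and Pyy (definitive endoderm) passed the filter on low counts only with their d5FS samples. All but Ihh are among the genes that rose, so these counts are not independent of the d5FS level. Of 20 genes of mature hepatocytes 5 were tested, and Tdo2 rose and Ass1 fell from d0 to d5FS. Their summed level was 50.3 to 50.5 CPM in d0 and 25.3 to 33.7 CPM in d5FS, most of it Ass1 and Fah, and 7 and 17 of the 20 had counts in the d5FS replicates. Of this list Cyp3a11 and Otc had no count in any sample. Of 11 tested visceral endoderm markers 7 rose and none fell from d0 to d5FS, including Soat2 (0.543 and 2.20 to 37.5 and 28.7 CPM), Pdzk1 (2.58 and 2.25 to 26.8 and 22.7 CPM), Slc39a8, Cited1 and Dab2. The tested markers not called were Ihh (log2 fold change 1.86), Amn (0.82), Lrp2 (-0.26) and Rhox5 (-0.79). The summed level of that list was 121.3 to 402.9 CPM in d0 and 472.2 to 786.0 CPM in d5FS, with no marker at 0 in either d5FS sample. In these sums Lrp2 was at 346 and 43 CPM in the d0 replicates and 291.7 and 48.6 CPM in d5FS. Slc39a8 was at 335.5 and 234.8 CPM in d5FS. Of 9 tested definitive endoderm markers 7 rose, among them Cer1 (1.45 and 0.539 to 316.2 and 478.6 CPM), Cxcr4 and Cldn6, and 7 of 10 parietal endoderm markers rose, with Srgn at 70.1 and 47.7 CPM in d5FS. Not called were Trh (0.17) and Epcam (-0.13) of the former, and Plat (1.47), Lama1 (0.03) and Nid1 (-0.06) of the latter. The part of any such cells in the rise of Rbp4, Ttr, Afp, Fgb and Fga was not tested, and fewer cells of a type and less RNA per cell cannot be told apart in bulk samples.

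The fibroblast list was included because the line was thawed on feeder cells. Per the methods, the feeders were depleted and the cells passaged on gelatine before differentiation. The list had 4 of 6 tested genes called higher in d5FS and none called lower. Its summed level went from 9.95 to 12.8 CPM in d0 to 194.1 to 248.2 CPM in d5FS, mostly Col1a2 and Col3a1. The tested genes not called were Dcn (log2 fold change 0.47) and Thy1 (-1.62). Thy1 was at 3.17 and 1.30 CPM in d0 and 1.09 and 0.456 CPM in d5FS. Fap was at 0 in all samples and Lum at 0 in both d5FS samples. The part of this list in the results was not tested. Blood cell genes were near the floor, at 0.243 to 0.968 summed CPM in d5FS against 1.93 to 9.50 in d0, with the embryonic globins Hbb-bh1 and Hba-x at 0 in every sample. Of 8 pluripotency genes 7 fell from d0 to d5FS and none rose, Pou5f1 from 891.1 and 1198 to 56.7 and 43.4 CPM.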

How the data were processed

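RNA-seq of d0, d3F and d5FS cells was used, 2 replicates each, grouped by their GEO titles. Per the methods and labels, the authors extracted total RNA, depleted ribosomal RNA, made TruSeq V2 libraries, aligned reads to mm10 with STAR and quantified genes with RSEM; versions and the annotation release are not given in the sources used here. The deposited expected counts are RSEM's estimated fragments per gene, without normalization by the authors. The deposited TPM values were divided by effective length and scaled to a common sum by the authors' RSEM run, and the deposited FPKM values, scaled for length and depth in the same run, were not used for any result.

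CPM is the expected count scaled to the summed expected counts of the sample (16457729 to 22768686). For testing, expected counts were rounded and fitted with edgeR 4.0.16 in R 4.3.3 (filterByExpr, TMM, 1 mean per population over all 6 samples, 3 residual degrees of freedom, glmQLFTest, prior count 0.125). P-values were adjusted by Benjamini-Hochberg over 14539 genes, and calls needed both an adjusted p under 0.05 and a log2 fold change beyond ±1. The standard error is the absolute log2 fold change over the square root of F. Pooled ratios are of CPM over both samples, with 95% exact binomial intervals for counting error only, and bounds use 3 counts over the population. An exact permutation test of 2 samples against 2 cannot go below p = 0.333 (two-sided), so none was run on single genes. The test was also run on simulated data with known changes. Alternatives used limma 3.58.1 and DESeq2 1.42.0 among others. Gene positions are from GENCODE M21 (mm10). Promoter windows came from a RefSeq table (GRCm38.p6).

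The 10 genes and the gene lists were chosen with earlier results of these data known. From each list the text names at most the 5 genes with the highest mean d5FS TPM among those called from d0 to d5FS, every tested gene beside a member on its chromosome, the Serpina1 paralogs, Foxa2, Sox17 and Hnf4a. Other genes named with values were chosen after those were seen.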

Additional observations from a re-analysis of the deposited data

How the results depend on the processing

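The counts of called genes moved widely, and low counts limit Fga, Fgg, Ahsg, Alb and Serpina1a throughout. From d0 to d5FS the 7 calls among the 10 genes became 3 with the DESeq2 Wald test against a log2 fold change of 1 and 2 with at least 10 counts in every sample, where only Rbp4 and Trf were tested, and 4 to 6 without each sample in turn (4 without either d5FS replicate). Afp and Rbp4 kept this call under every alternative in which they were tested, whereas Fga kept it in 8 of 13 and Ahsg in 5 of 14. From d3F to d5FS the 2 calls became 1 with glmTreat, 5 with no filter on low counts, 1 with at least 10 counts, 5 in a fit of only the groups compared, 4 with limma on log2(TPM + 0.1) and 0 to 4 without each sample (0 without d3F replicate 1 or d5FS replicate 2, where 5 had an unadjusted p under 0.05 in edgeR, 1 without d5FS replicate 1, 4 without either d0 replicate, and 2 without d3F replicate 2, namely Fgb and Ttr in place of Afp and Rbp4). From d0 to d3F the 1 call became 0 with glmTreat (1 at an unadjusted p under 0.05), 2 with the DESeq2 Wald test, 3 with no filter, 0 with only the groups compared (3 unadjusted) and 0 to 1 without each sample (1 to 4 unadjusted, in edgeR). A sample left alone in its population was assumed to vary like the others.

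Fitted log2 fold changes from d0 to d3F turned or vanished for 4 genes: without each sample they ranged from 0.00 to 4.63 for Fga, 0.00 to 6.46 for Fgb and -3.67 to 5.69 for Ttr, the lowest without d3F replicate 2, which held all their d3F counts, and from -0.89 to 0.36 for Afp, the highest without d0 replicate 1. Of 333 recomputed member changes in all, 274 kept their direction and side of the threshold, 33 lost the threshold, 22 gained it and 4 turned or vanished.

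Among all genes, the calls from d0 to d3F (683) were 242 with glmTreat, 1486 with the DESeq2 Wald test, 383 with that test against 1, 1933 unfiltered, 357 with at least 10 counts, 430 with only the groups compared and 97 to 977 without each sample. From d3F to d5FS (224) they were 70 with glmTreat, 1057 with the DESeq2 Wald test, 1423 unfiltered, 144 with at least 10 counts, 529 with only the groups compared and 0 to 496 without each sample. The 0, without d3F replicate 1 in edgeR, came with 1206 genes at an unadjusted p under 0.05. From d0 to d5FS (3313) they were 1235 with glmTreat, 1006 with DESeq2 against 1 and 1047 to 3037 without each sample.

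With the replicate block, 2 of the 10 genes were called from d0 to d3F (Rbp4 and Trf), 4 from d3F to d5FS (Afp, Fgb, Rbp4 and Ttr), and 1320 and 918 of all genes; from d0 to d5FS the block count stayed within 1.5-fold. The labels give only the shared number, and deviations of same-numbered samples correlated at 0.314, 0.324 and 0.278, with 2 pairs per comparison.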
